A study of Haliotis discus hannai with 24 samples.

Results

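The eyestalk of the Pacific abalone Haliotis discus hannai was compared with the epipodial tentacle, by messenger RNA sequencing of 16 of the 24 libraries of a study on left and right sensory organs. The members are the 8 eyestalk libraries (4 left, 4 right) and the 8 epipodial tentacle libraries (4 labelled left, 4 labelled right), taken by their tissue labels. Both sides of an organ were given equal weight. The other 8 libraries are of the cephalic tentacle and serve here only to estimate the spread and as a further level.

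All animals were farmed stock (Aquaculture in the genotype label), and the treatment label of each library names the cutting off of an organ. For the epipodial libraries labelled left, that label names the left cephalic tentacle, in conflict with the tissue label. The initial letter of the epipodial titles also marks the opposite side to the tissue label. Equal weights make the organ comparison independent of which side is right. The sources used here give no age, number of animals or pooling. The p-values therefore reflect only how far these libraries vary, which may in part be technical.

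In abalone the eyestalk is a short stalk on the head that carries an open cup-shaped eye at its tip. Light is absorbed in such eyes by opsins of photoreceptor cells, beside pigment cells and the nerve that leads to the brain. The epipodium is a fold around the foot, and its tentacles are extensible, ciliated and muscular organs of touch and chemical sense. The study's design asks about left and right, and the organ comparison shows how far an organ of vision and a foot fringe tentacle differ in the genes they use.

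Gene identifiers come without names in the deposited files. No photoreceptor, muscle, cilium or secretory marker could be looked up, so the organ labels were not checked against markers, and no gene function is given below. At most 2 genes higher and 2 genes lower in the eyestalk are named.

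The libraries of the organs were not alike in quality of detection, which is given before the results. The total count was 1692939 to 4479096 in the eyestalk and 1700095 to 2146464 in the epipodial tentacle. At least 1 count was found for 8876 to 10678 genes per epipodial library. In the eyestalk the number was 3682, 8371, 8418 and 11090 on the right and 10631, 4073, 4360 and 10385 on the left, in the order of replicates 1 to 4. Right eyestalk replicate 1 and left eyestalk replicates 2 and 3 were thus under 6000 genes. Their totals were 1692939, 2201621 and 1901899, the first of which was the lowest of the 16 libraries. Right eyestalk replicate 2 gave 70.8% of its counts to a single gene. These 4 libraries stand apart. Counts of calls, genes without overlap, named genes, correlations, FPKM classes and silent genes are also given without them. The fits then also leave out 4 cephalic libraries by the same bounds. Level bins and intervals of single genes were computed with all libraries only.

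**Figure D1:**
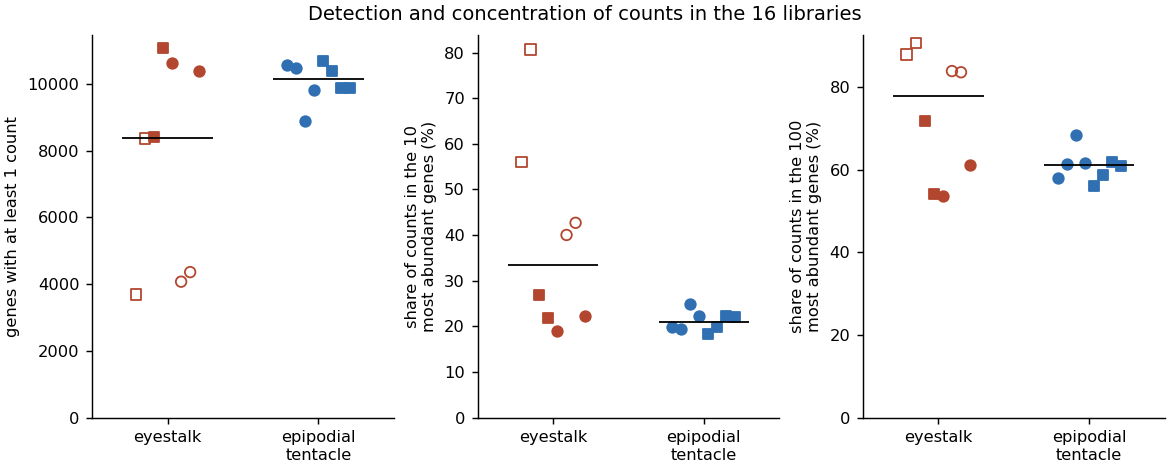
Genes with at least 1 count, and the share of counts (%) taken by the 10 and the 100 most abundant genes of each library, for 8 eyestalk (red) and 8 epipodial tentacle (blue) libraries; circles are left, squares right by the tissue label, lines are medians, and open symbols are the 4 eyestalk libraries that stand apart. The epipodial libraries lie close together (8876 to 10678 genes, 18.3% to 24.97% in 10 genes), and the open eyestalk symbols reach 40.03% to 80.7% in 10 genes.

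Counts were more concentrated in the eyestalk. The 10 most abundant genes of a library took 19.0% to 80.7% of its counts in the eyestalk, with a median of 33.5%, and 18.3% to 24.97% in the epipodial tentacle, with a median of 21.0%. Without the 4 eyestalk libraries that stand apart the eyestalk range was 19.0% to 26.9%, which overlaps the epipodial range. Per coding length, 6886 genes had a median of at least 1 FPKM (the count scaled by coding length and library total) over the eyestalk libraries and 8890 over the epipodial libraries. At 100 FPKM or more these were 766 and 1203 genes, and at 1000 FPKM or more 121 and 172. Over the 4 remaining eyestalk libraries the counts at these levels were 9520, 1270 and 173 genes, none of them below the epipodial count.

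Eyestalk libraries were also less alike. Across the 7341 tested genes, the correlation of log2(CPM + 1) between pairs of epipodial libraries was 0.783 to 0.965 (median 0.821, 28 pairs). CPM is the count scaled to a library size corrected for composition by a TMM factor. Between pairs of eyestalk libraries it was 0.577 to 0.933 (median 0.682, 28 pairs), and between an eyestalk and an epipodial library 0.586 to 0.874 (median 0.701, 64 pairs). Without the 4 libraries that stand apart the eyestalk pairs had a median of 0.812 (6 pairs) and the pairs across organs a median of 0.735 (32 pairs). All 8 epipodial libraries had a higher median correlation with their own organ than with the eyestalk, but only 4 of the 8 eyestalk libraries were nearer to their own organ. These were the 4 that stand apart, and the other 4 eyestalk libraries were nearer to the epipodial tentacle. The own-organ medians of these other 4 include their pairs with the libraries that stand apart. Among themselves and with the epipodial tentacle they had the medians of 0.812 and 0.735 given above. By rank correlation right eyestalk replicate 2 also turned, with medians of 0.620 and 0.624, which left 3. Genes are not independent replicates, and all pairs share the same gene list and its range of levels, so these correlations are a description. The common biological coefficient of variation (the spread between libraries of a group beyond counting error) was 1.27 in the eyestalk and 0.690 in the epipodial tentacle. Without the 4 libraries that stand apart it was 0.760 in the eyestalk. With the replicate number as a block and all libraries it was 1.16 and 0.248.

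Genes lower in the eyestalk outnumbered those higher in it. Of 7341 genes tested, edgeR's quasi-likelihood test called 365 at an adjusted p under 0.05 (Benjamini-Hochberg), 4.97% of the tested genes. The eyestalk was higher for 74 of them, 1.01% of the tested genes, and lower for 291, 3.96%. At an unadjusted p under 0.05 there were 965 genes (13.1%). In bulk samples, fewer cells of a type and less RNA per cell cannot be told apart. The called genes differed by large factors: the median absolute log2 fold change was 3.44 among those higher and 3.65 among those lower, against 0.60 over all tested genes. The smallest called difference was 1.39 on the log2 scale among the higher genes and 1.22 among the lower. Of the higher genes 13 of 74 differed by more than 6 on the log2 scale, and of the lower genes 28 of 291.

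**Figure D2:**
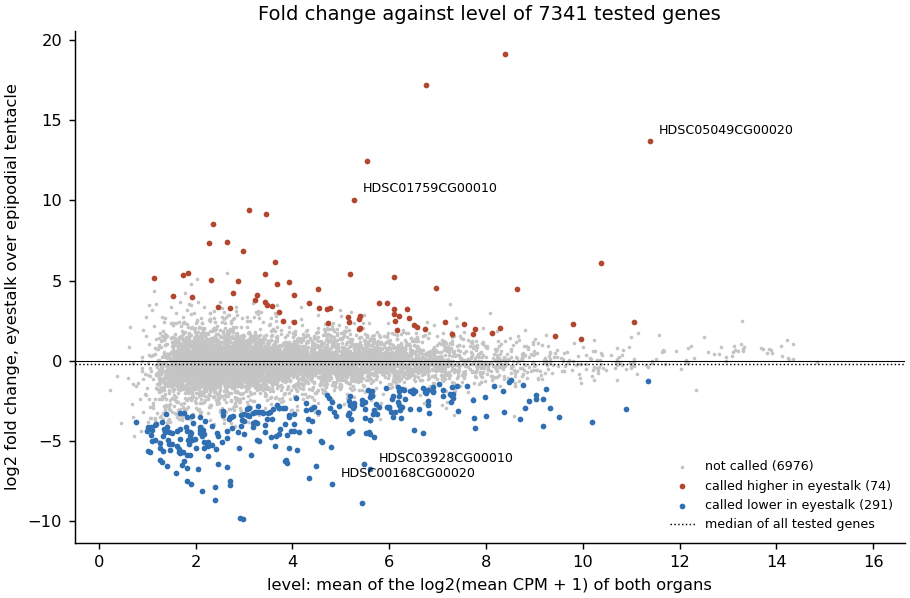
Log2 fold change (eyestalk over epipodial tentacle, vertical) against level (mean over both organs of log2(mean CPM + 1), horizontal) for 7341 tested genes, with those called higher in the eyestalk in red (74), those called lower in blue (291) and the median of all tested genes as a dotted line. Blue points lie at all levels, while the red points farthest from 0 are few and reach a log2 fold change of 19.1.

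The count rests on what is taken as a unit. If both sides with the same replicate number came from 1 animal, the sums of both sides are the proper units, and edgeR on these sums (4 against 4) called 32 genes higher and 116 lower. Taking the replicate number also as a block gave 68 higher and 242 lower. The share of higher genes among the calls stayed near the 20.3% of the fit of single libraries, with 21.6% and 21.9%. The 365 calls of that fit count the sides as separate units, although libraries of a number varied together in the epipodial tentacle. With the number as a block, its common coefficient of variation fell from 0.690 to 0.248, and that of the eyestalk from 1.27 to 1.16.

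More of the lower than of the higher genes kept their direction in every number. Over all tested genes, too, being lower in every number was more frequent than being higher. Taking the mean of both sides in each number, 279 of the 291 lower genes (95.9%) were lower in the eyestalk in 4 of 4 numbers, and 55 of the 74 higher genes (74.3%) were higher in 4 of 4. Over all tested genes 22.0% were lower in 4 of 4 numbers and 3.61% higher. The contrast chose the called genes from these same libraries, so their shares are a description. Numbers 1, 2 and 3 each hold an eyestalk library with under 6000 genes, and the part of these libraries in the shares was not tested. The ranges of the 8 and the 8 libraries did not overlap for 137 of the 291 lower genes (47.1%) and 21 of the 74 higher genes (28.4%). Together these 158 genes were 2.15% of the tested genes. Called or not, 207 of the tested genes (2.82%) had no overlap, with 2.48% wholly lower in the eyestalk and 0.341% wholly higher. A further 45 genes lay wholly lower and 4 wholly higher without being called. Without the 4 eyestalk libraries that stand apart, 4.59% of the tested genes lay wholly lower and 3.58% wholly higher. Of the called genes, 183 of the 291 lower (62.9%) and 37 of the 74 higher (50%) then had no overlap. With fewer libraries, ranges separate more easily, so the shares of both settings are not on the same footing.

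The 4 libraries that stand apart bore more on the genes called higher than on those called lower. Without them, edgeR tested 8333 genes and called 146 higher and 309 lower, so that the higher genes were 32.1% of the calls. Of the 291 lower genes 205 were called again, 0 had the opposite sign, and their median log2 fold change was -3.57 against -3.65 with all libraries. Of the 74 higher genes 33 were called again and 5 had the opposite sign. The median log2 fold change of the 71 that were tested in both fits was 1.94 without these libraries, against 3.44 for the 74 with all libraries. The genes called higher took 44.9% and 78.6% of the counts in right eyestalk replicates 1 and 2, and 24.7% and 15.6% in left eyestalk replicates 2 and 3. In the other 4 eyestalk libraries they took 2.505% to 4.45%, and in the epipodial libraries 0.352% to 0.651%. The contrast chose these genes, so the shares describe where their counts lie and test nothing. What sets the 4 libraries apart, and its part in these calls, was not tested.

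Leaving them out also brought 113 genes into the higher set that were not called with all libraries. Of these 102 had been tested before, and in all 102 the eyestalk was already higher, with a median log2 fold change of 1.46 that became 2.04. Their level was moderate: the median over these genes of the mean log2(CPM + 1) was 5.77 in the 4 remaining eyestalk libraries and 3.90 in the epipodial tentacle. A further 104 genes entered the lower set, of which 96 had been tested and 92 were lower with all libraries too.

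The most extreme gene named among the higher ones was HDSC05049CG00020, with a coding length of 1731 bases. Among the tested genes it had the first rank by median CPM over all 8 eyestalk libraries, including those that stand apart. It was at 497851, 2440744, 1087 and 1959 CPM in right eyestalk replicates 1 to 4. On the left it was at 6160.0, 156534, 115157 and 793 CPM. Its values in the epipodial libraries labelled left were 24.05, 9.53, 5.37 and 17.0 CPM, and in those labelled right 5.66, 5.14, 7.11 and 61.8 CPM. The lowest eyestalk library thus lay above the highest epipodial library, but within the eyestalk the values spanned a far wider range than within the epipodial tentacle. Such a CPM value can exceed the sum that unscaled CPM values have in a library, because the TMM factor of right eyestalk replicate 2 was 0.291, so these values are no shares. As shares, HDSC05049CG00020 took 70.8% of the counts of right eyestalk replicate 2, 24.1% of replicate 1 and 0.0906% of replicate 3. In the 4 eyestalk libraries that do not stand apart it took 0.0906% to 1.08%, while the most abundant gene of each took 3.49% to 7.23%. Means were 402536 CPM ± 840630 in the eyestalk and 17.0 ± 19.3 in the epipodial tentacle (SD, n = 8 each). On the log2 scale the eyestalk was higher by 13.72 (SE 2.08), with an edgeR adjusted p = 0.000682.

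Single libraries bore on the level of HDSC05049CG00020. Without right eyestalk replicate 2 the eyestalk mean was 111363 CPM and the log2 fold change 12.63. Without right epipodial tentacle replicate 4 the epipodial mean was 10.5 CPM and the log2 fold change 14.57. Without the 4 libraries that stand apart the eyestalk mean was 2499.6 CPM ± 2490.0 (SD, n = 4) and the log2 fold change 7.05 (SE 0.917, edgeR adjusted p = 0.000737).

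The other named gene higher in the eyestalk, HDSC01759CG00010, had a coding length of 441 bases. It was at 1990.2, 530, 143 and 595 CPM in right eyestalk replicates 1 to 4, and at 796, 1686, 281 and 538 CPM on the left. In the epipodial tentacle it had 0 counts in 4 libraries and 1, 3, 2 and 8 counts in the other 4, at most 3.78 CPM. All 8 eyestalk libraries were therefore far above all 8 epipodial libraries, including the 4 libraries that do not stand apart. The means of HDSC01759CG00010 were 820 CPM ± 664 and 0.825 ± 1.33 (SD, n = 8 each), a log2 difference of 10.06 (SE 1.36) with an edgeR adjusted p = 0.000201. Without the 4 libraries that stand apart its log2 fold change was 9.35 (SE 0.931, edgeR adjusted p = 0.000175). Without right epipodial tentacle replicate 4 its epipodial mean was 0.403 CPM and its log2 fold change 10.96, and without left epipodial tentacle replicate 3 the log2 fold change was 10.76. In the cephalic tentacle it had 14 counts in 1 library and 0 in the other 7.

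Among the genes lower in the eyestalk, HDSC00168CG00020 (coding length 435 bases) had 0 counts in 5 of the 8 eyestalk libraries. The other 3 eyestalk libraries, right replicate 4 and left replicates 1 and 4, were at 2.34, 6.24 and 3.36 CPM. In the epipodial libraries labelled left HDSC00168CG00020 was at 191, 201, 459 and 382 CPM, and in those labelled right at 178, 277, 451 and 373 CPM. Replicates 3 and 4 were higher than replicates 1 and 2 on both sides of the epipodial tentacle, and no library of it came near the eyestalk. The means were 1.49 CPM ± 2.33 in the eyestalk and 314 ± 117 in the epipodial tentacle (SD, n = 8 each). This was a log2 difference of -7.68 (SE 0.853) with an edgeR adjusted p = 7.81e-07. Without left eyestalk replicate 1 the eyestalk mean was 0.815 CPM, and without right eyestalk replicate 4 the log2 fold change of HDSC00168CG00020 was -9.54. The 4 eyestalk libraries that stand apart all had 0 counts, and without them the eyestalk mean of HDSC00168CG00020 was 2.99 CPM and the log2 fold change -6.95 (edgeR adjusted p = 0.000171).

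HDSC03928CG00010, with a coding length of 1023 bases, was at 0, 6.16, 0 and 6.44 CPM in right eyestalk replicates 1 to 4 and at 2.96, 9.10, 0 and 8.60 CPM on the left. In the epipodial libraries labelled left it was at 285, 337, 637 and 650.1 CPM, and in those labelled right at 200.1, 482, 444 and 624 CPM. The ranges were far apart, and within each organ the sides overlapped. The means of HDSC03928CG00010 were 4.16 CPM ± 3.90 and 457 ± 172 (SD, n = 8 each), a log2 difference of -6.75 (SE 0.794) with an edgeR adjusted p = 2.3e-06, and of -6.68 without the libraries that stand apart. In the cephalic tentacle both lower genes had a count in only 3 of 8 libraries, at most 2.90 CPM.

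**Figure D3:**
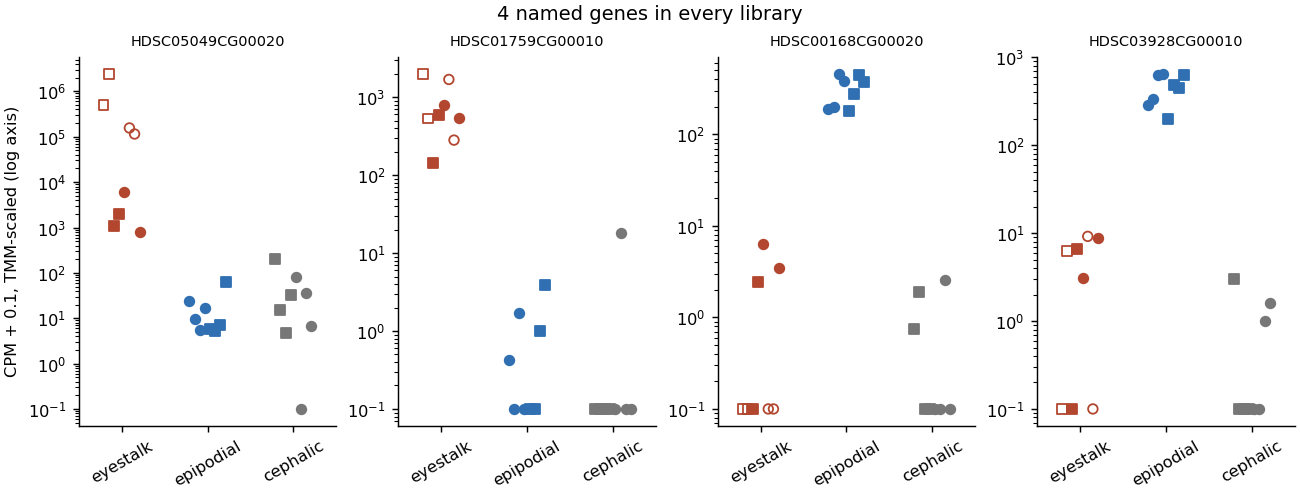
Level (CPM + 0.1, TMM-scaled, log axis) of the 4 named genes in every eyestalk (red), epipodial (blue) and cephalic tentacle (grey) library; circles are left, squares right by the tissue label, and open symbols are the 4 eyestalk libraries that stand apart (cephalic ones are not marked). For each gene the 8 eyestalk and 8 epipodial values do not overlap; HDSC05049CG00020 spans 793 to 2440744 CPM within the eyestalk, and HDSC01759CG00010 143 to 1990.2 CPM.

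The naming rule took called genes without overlap and with more than 3 counts in each organ, so the absence of overlap in these 4 is no added support. It also asked for a call without the libraries that stand apart, with the replicate block and by DESeq2. This left 11 of the 74 higher genes and 108 of the 291 lower genes to choose from.

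Calls were made at every level. With the tested genes split into 4 bins of equal size by their mean level over both organs, the lowest bin had 7 genes higher and 73 lower in the eyestalk (4.36% called). The next bins upward had 16 and 53 (3.76%) and 16 and 61 (4.20%), and the highest bin 35 and 104 (7.57%). Lower genes were the more numerous in each bin. Precision rose with level: the median standard error of the log2 fold change was 1.05 in the lowest bin and 0.54 in the highest.

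For most genes an 8-fold difference could be excluded, and for few a 2-fold difference. The 95% interval of the fold excluded a 4-fold difference in either direction for 2247 genes (30.6%), an 8-fold difference for 5361 (73.0%), and a 2-fold difference for only 122 (1.66%). In the bin of highest level it excluded a 4-fold difference for 67.3% of genes, and in the lowest for 2.94%. The intervals count the 24 libraries as independent units. The most abundant genes were largely common to both organs: of the 20 with the highest mean CPM in each organ 15 were shared, and of the 100 highest 77. Without the libraries that stand apart these were 17 and 82. Of the 100 highest in the epipodial tentacle 9 were called lower in the eyestalk and 0 higher, and of the 100 highest in the eyestalk 9 were called higher and 1 lower.

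Genes silent in 1 organ were rare when every library of the other organ had to show them. With 0 counts in all 8 eyestalk libraries and at least 1 count in each epipodial library there were 11 genes, and the reverse held for 1 gene. The 11 genes averaged between 1.88 and 61.2 CPM in the epipodial tentacle, with a median of 11.5 CPM. Set against a floor of 3 counts summed over the 8 silent libraries, which corresponds to 0.194 CPM in the eyestalk, the summed epipodial counts put them at least 10.2-fold to at least 328-fold lower there, with a median bound of 59.5-fold. Of the 11 genes 8 passed the filter on low counts and all of these 8 were called. In the cephalic tentacle 6 of the 11 also had 0 counts, 1 had 2 counts and 4 had more than 3.

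The single gene silent in the epipodial tentacle averaged 11855 CPM ± 19631 (SD, n = 8) in the eyestalk, with a lowest library at 117 CPM, a median of 1970.9 CPM and a highest at 57233 CPM, and had 0 counts in the cephalic tentacle as well. From summed counts it was at least 50537-fold higher in the eyestalk than 3 counts over the epipodial tentacle (0.152 CPM). Right eyestalk replicate 2 was the highest library. Without it the mean was 5372.4 CPM and the bound at least 20754-fold, and without the 4 libraries that stand apart 590.6 CPM ± 619 (SD, n = 4) and at least 4194.5-fold. Floors cover counting error only, and 0 counts mean that a transcript was not detectable at this depth.

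The number of silent genes depended on how silence was defined. Allowing up to 3 counts over the silent organ gave 43 genes in the eyestalk and 4 in the epipodial tentacle. Asking for counts in only 6 of 8 libraries of the other organ gave 52 and 2. Thinning every library to the same depth of 950813 counts, after 5 abundant genes were set aside, gave 9 and 2, of which 7 and 1 were among the 11 and the 1. Without the libraries that stand apart there were 14 and 7. The gene count silent in the eyestalk rose to 21 without right eyestalk replicate 4 and to 20 without left eyestalk replicate 1, the eyestalk libraries with the most genes detected.

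With no demand on the other organ, 2120 genes had a count in some epipodial library and in none of the eyestalk, and 1492 the reverse. Most of these were seen once: 1251 (59.0%) in a single epipodial library and 1160 (77.7%) in a single eyestalk library. In all 16 libraries 2009 genes had a count. All 8 epipodial libraries had a count of 6263 genes, and all 8 eyestalk libraries of 2035, so that nearly every gene found throughout the eyestalk was also found throughout the epipodial tentacle. A gene among the 2035 had to be found in the 3 eyestalk libraries with under 6000 genes too. By the main definition, only the 6263 genes could count as silent in the eyestalk, and only the 2035 as silent in the epipodial tentacle.

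**Figure D4:**
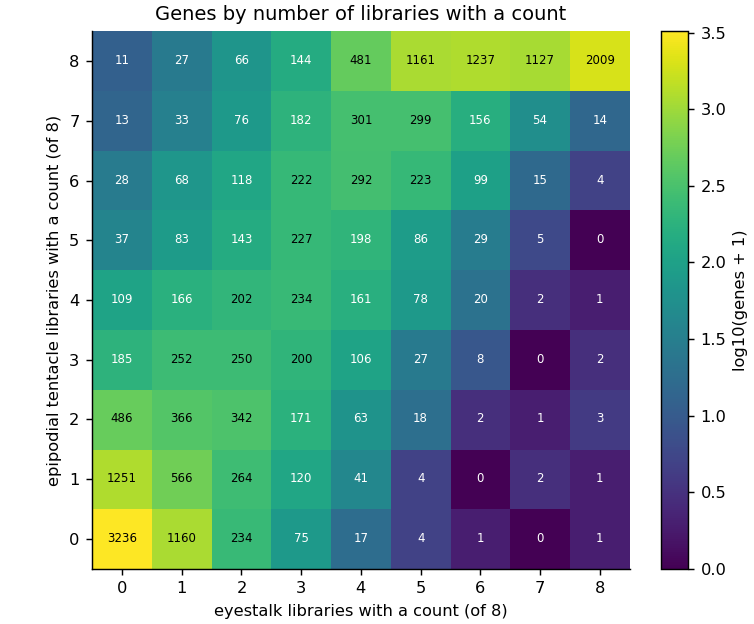
Number of genes (printed in each cell, colour on a log10 scale) by the number of eyestalk libraries (horizontal, 0 to 8) and epipodial tentacle libraries (vertical, 0 to 8) in which they had a count. The top left cell holds the 11 genes silent in the eyestalk and found in all epipodial libraries, the bottom right cell the 1 gene of the reverse kind, and the top right cell the 2009 genes found in all 16.

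Scaling shifted the balance of directions. With TMM factors the median log2 fold change over the tested genes was -0.18, and 58.4% of genes were below 0. RLE factors moved the median to 0.01, upper quartile factors to -0.06, TMMwsp factors to -0.23, and library totals with no factor to -0.44. Calls followed this shift. RLE factors gave 104 genes higher and 242 lower (30.1% higher), upper quartile factors 104 and 271 (27.7%), and TMMwsp factors 67 and 297 (18.4%). Library totals alone gave 25 and 276, so that only 8.31% of calls were higher. Computing the TMM factors after setting aside the genes over 5% of any library gave 73 and 299.

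Under all 6 scalings 25 of the 74 higher genes and 222 of the 291 lower genes were called. RLE factors kept the call of 74 of the 74 higher and 241 of the 291 lower genes, and unscaled library totals that of 25 and 247. The log2 fold change of HDSC01759CG00010 was 9.58 to 10.37 over the scalings, that of HDSC00168CG00020 -7.70 to -7.32 and that of HDSC03928CG00010 -6.99 to -6.49. HDSC05049CG00020 moved most, from 12.23 with library totals to 13.99 with upper quartile factors. Lower genes outnumbered higher genes under each scaling.

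The size of the shift differed by library. The median difference of log2(CPM + 1) from the epipodial mean was -1.68, -0.26, -0.10 and 0.08 in right eyestalk replicates 1 to 4 and 0.05, -1.54, -1.38 and 0.01 on the left. The 3 strongly negative values belong to the 3 eyestalk libraries with under 6000 genes, where many genes had 0 counts. Without the libraries that stand apart the median of the fitted log2 fold changes was -0.05.

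**Figure D5:**
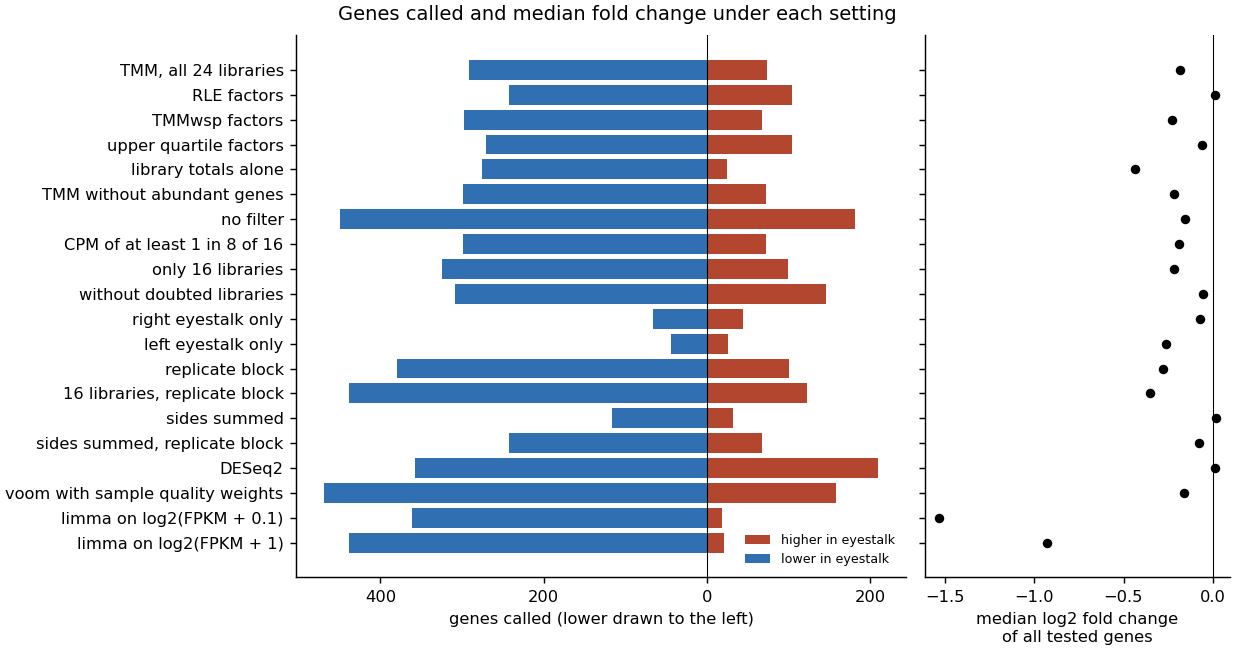
Left, genes called higher (red, to the right) and lower (blue, to the left) in the eyestalk under each scaling, filter, library choice and tool; right, the median log2 fold change over the tested genes. "Doubted libraries" are those with under 6000 genes or 1 gene over 50% of counts. Lower calls outnumber higher calls in each setting, with 291 against 74 with TMM, 276 against 25 with library totals and 358 against 210 by DESeq2, and the median lies between -0.44 and 0.01 over the edgeR scalings.

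The organ difference was also asked separately for each side. Right eyestalks against all epipodial libraries gave 44 genes higher and 66 lower, and left eyestalks 26 and 44. The difference of the organ effect between the sides was called for 0 genes by edgeR, with 64 (0.872%) at an unadjusted p under 0.05. Reading the epipodial sides by the titles also gave 0 calls, and DESeq2 gave 0, with 54 at an unadjusted p under 0.05. The share of 0.872% is below the rate of 0.05 that p-values give when no gene differs, so the test was conservative here. The 0 calls therefore do not show that the sides are alike. For HDSC05049CG00020 the difference was -2.90 on the log2 scale (SE 2.56, edgeR adjusted p = 1), so its fold on the left was not shown to differ from that on the right.

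The cephalic tentacle, which the contrast did not use as a group, gave a further level for the called genes. For the genes lower in the eyestalk, the median over genes of the mean log2(CPM + 1) was 1.39 in the eyestalk, 3.58 in the cephalic tentacle and 5.15 in the epipodial tentacle. Its mean lay between the means of the other organs for 196 of the 291 (67.4%), against 35.3% of all tested genes. For the genes higher in the eyestalk the medians were 5.90, 2.96 and 2.91, and 34 of 74 (45.9%) lay between. A gene chosen for a wide gap leaves more room between its ends, so these shares are a description. Of the 8 cephalic libraries 4 had under 6000 genes or 1 gene over 50% of counts. They enter the cephalic means, and cephalic levels without them were not computed.

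Coding length, which the contrast did not use, was similar among called and other genes. Its median was 715.5 bases for the genes higher in the eyestalk, 702 for those lower and 744 for all tested genes, with quartiles of 482.25 and 1302.75, 438 and 1185, and 447 and 1245.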

How the data were processed

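Polyadenylated RNA was sequenced in 24 libraries (6 groups of 4), extracted with TRIzol and prepared with the VAHTS Universal V6 kit, according to the labels. Per the submitters' processing notes, the tools were fastp, HISAT2 and HTSeq. The sources used here give no versions, build, annotation or strand setting, so overlapping genes and near-identical copies are uncertain. The authors deposited raw read counts per gene for 19700 genes, and FPKM values that equal the count over coding length and library total. Coding lengths recovered from this relation were whole within 0.001 for 17233 genes with a count, and 99.4% were divisible by 3.

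Counts were tested with edgeR 4.0.16 (R 4.3.3): filterByExpr over 6 groups, TMM factors, a robust quasi-likelihood fit of 24 libraries with 18 residual degrees of freedom, and Benjamini-Hochberg adjustment at 0.05. Standard errors come from the F statistic. The contrast was the mean of both eyestalk groups minus the mean of both epipodial groups. The code was tested on simulated data. Alternatives used DESeq2 1.42.0, limma 3.58.1 on voom values, and limma on log2(FPKM + 0.1) and log2(FPKM + 1). In the FPKM fits the added constant bears on the folds of low genes. Intervals are at the 95% level.

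Same-numbered eyestalk and epipodial libraries, as means of both sides, deviated together across genes, with correlations of 0.54, 0.37, 0.56 and 0.36 for numbers 1 to 4. The exact one-sided permutation p was 0.0417 over 24 assignments, the smallest they can give. This p lay under the bound of 0.1, so the numbers were taken to pair libraries. The main fit nevertheless leaves this pairing out, and so do its calls, intervals, standard errors and p-values. Fits with the number as a block and on sums of sides are given as alternatives. The labels do not say if a number is an animal. The members, tests and alternatives were chosen with earlier results of these data known. FPKM classes and coefficients of variation without the libraries that stand apart, and bounds of the gene silent in the epipodial tentacle with libraries left out, were added after seeing the data. Named genes were the 2 in each direction with the largest fold change among those called with all libraries, without the libraries that stand apart, with the replicate block and by DESeq2, without overlap and with over 3 counts in each organ. Marker lists could not be matched to identifiers and were not used.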

Additional observations from a re-analysis of the deposited data

Results flagged for a closer look

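In 18 sets of 8 libraries, 6 values lay far from the nearest other library relative to the range of their set. For normally distributed values about 1 in 20 sets would be singled out by chance. Several of these sets are strongly skewed and the sets share libraries, so that rate need not hold here. Right eyestalk replicate 2 had a total count of 4479096 against 2201621 in the next eyestalk library, a top gene share of 70.8% against 24.1%, and 2440744 CPM of HDSC05049CG00020 against 497851 CPM. In right epipodial tentacle replicate 4 the 2 named genes that were higher in the eyestalk both stood out upward: HDSC05049CG00020 was at 61.8 CPM against 24.05 in the next epipodial library, and HDSC01759CG00010 at 3.78 CPM against 1.61. Left epipodial tentacle replicate 3 had 8876 genes with a count, against 9826 in the next epipodial library.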

How the results depend on the processing

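The 4 named genes kept their direction and stayed under an adjusted p of 0.05 in all 33 alternatives, with log2 fold changes of 7.05 to 15.42 for HDSC05049CG00020 (adjusted p at most 0.0154), 9.06 to 10.96 for HDSC01759CG00010, -10.37 to -6.86 for HDSC00168CG00020 and -8.67 to -6.44 for HDSC03928CG00010. The naming rule itself asked for the call without the libraries that stand apart, with the replicate block and by DESeq2. The alternatives also share libraries with the main fit, so they are no independent support. No called gene was called in the opposite direction under any alternative. Leaving out 1 library at a time gave 270 to 402 calls, 47 to 91 of them higher and 221 to 321 lower, a median log2 fold change of -0.36 to -0.11, 11 to 21 genes silent in the eyestalk and 1 to 2 silent in the epipodial tentacle. The lowest counts of higher genes, 47, 48 and 49, came without left epipodial replicate 2, right epipodial replicate 2 and right epipodial replicate 1, and 2 genes were silent in the epipodial tentacle without right epipodial replicate 1. With the replicate block, edgeR called 479 genes (100 higher, 379 lower), including 68 and 287 of the same genes, and 0 genes for the difference between sides; in fits of single libraries the block moved no count of calls by over 1.5 times, while on sums of sides it moved 148 calls (32, 116) to 310 (68, 242). Total calls, with higher and lower in brackets, were 631 (181, 450) with no filter, 568 (210, 358) by DESeq2, 627 (158, 469) by limma with voom and quality weights, and 561 (123, 438) from the 16 libraries with the block, a fit added after the data were seen. They were 148 from sums of sides, 110 (44, 66) for right and 70 (26, 44) for left eyestalks alone. The last 3 compare fewer units, and the first tested 17233 genes; otherwise the cause was not tested. Limma called 18 higher and 361 lower on log2(FPKM + 0.1), and 21 and 439 on log2(FPKM + 1), values with no composition factor, with medians over all genes of -1.54 and -0.93. Library totals alone gave 25 higher genes, and leaving out the libraries that stand apart gave 146. The median over all genes turned to 0.0103 with RLE factors and to 0.0112 by DESeq2, which uses factors of that kind, and to 0.016 on sums of sides with TMM factors. Silent genes numbered 43 and 4 (eyestalk and epipodial) with up to 3 counts allowed, 52 and 2 with counts in 6 of 8, 9 and 2 at equal depth, and 14 and 7 without the libraries that stand apart. At low levels the intervals seldom exclude a 4-fold difference, and the part of depth in this was not tested.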

Other observations

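Tested genes next to a called gene in the identifier series were called in the same direction more often than tested genes at large. Taking as neighbours identifiers with the same stem whose last number differs by 10, 86 tested genes were next to a gene called lower in the eyestalk, and 25 of them (29.1%) were themselves called lower, against 3.96% of all tested genes. Next to a gene called higher were 29 tested genes, of which 6 (20.7%) were called higher, against 1.01%. There were 13 such pairs among the lower genes and 3 among the higher genes. Only 2408 of the 7341 tested genes had a tested neighbour at all, and the share called among these was not computed. The sources do not say if these identifiers mark positions along a sequence, and reads shared between near-identical copies cannot be told apart from separate expression, so the shares are given as a description.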
